A study of Mus musculus with 8 samples.

Results

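A set of 41 genes of TGF-beta and BMP signalling was examined among the 21364 genes named on the array. Its members are 3 TGF-beta ligands, 7 ligands of the BMP, activin and GDF branch, 6 type I receptors, 5 type II receptors and co-receptors, 6 receptor-regulated and common Smads, 2 inhibitory Smads, 4 secreted antagonists, 4 latent TGF-beta binding proteins and 4 Id genes. The members were found on the array by the RefSeq transcript of each probe, and where several probes read a gene, the one of highest mean signal stood for it. RNA of the thoracic aorta was compared between 4 Fto -/- samples and 4 Fto +/+ samples, each on its own single-dye microarray. Fto encodes a demethylase of adenosine in RNA. All samples carry the labels male, C57BL6J/NMRI background and thoracic aorta, the mice lived under a light cycle of 12 h by 12 h, and RNA was used where its integrity number lay above 8. The construction of the Fto allele, the age of the mice and whether each sample is 1 animal are not given in the labels, so the p-values below measure the spread between these samples, which may be technical.

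TGF-beta family ligands bind a pair of type II and type I receptor kinases, and the type I receptor phosphorylates receptor-regulated Smads that enter the nucleus together with the common Smad, Smad4. In the TGF-beta and activin branch the carriers are Smad2 and Smad3, and in the BMP branch they are Smad1, Smad5 and Smad9, which switch on feedback targets such as the Id genes and the inhibitory Smads. In the artery wall these signals act on smooth muscle cells, endothelial cells and fibroblasts, and inherited defects of several members cause aneurysm or vascular malformation in humans.

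Fto itself was lower in all Fto -/- samples, with levels of -2.53, -2.19, -2.56 and -2.77 in the Fto -/- samples and 0.60, 0.85, 0.47 and 0.35 in the Fto +/+ samples, a log2 difference of -3.08 ± 0.15 (SE, limma adjusted p = 0.000403). Levels throughout are log2 ratios of a probe's intensity to its array's 75th percentile, so 0 marks that percentile, and levels of different probes are not compared. In every sample the free-text description contradicts the title and the genotype field, and the grouping by title and genotype is the one that Fto followed. Although all samples are labelled male, both Xist probes were well above background on 8 of 8 arrays, and the Y-linked Ddx3y, Kdm5d and Eif2s3y on 0 of 8. Of 2 probes of the Y-linked Uty, 1 was well above background on 1 array (highest intensity 208) and the other on 0. The 75th percentile of intensity lay between 294.9 and 374 on Fto -/- arrays and between 320.2 and 416 on Fto +/+ arrays, and the share of probes well above background between 45.6% and 47.8% on Fto -/- and between 44.6% and 45.2% on Fto +/+ arrays. Row 1 of the single slide held Fto -/- replicates 1, 2 and 3 with Fto +/+ replicate 1, and row 2 held the other four arrays.

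Smooth muscle markers (7 of 7 measured) were present in all samples. Their summed intensities, in units of the array's 75th percentile, were 2491 to 2838 in Fto -/- and 2507 to 3209 in Fto +/+ samples. Of the 7, 2 had an unadjusted limma p under 0.05, Lmod1 (log2 difference -0.78) and Cnn1 (-0.32). Smtn (-0.25) and Myocd (-0.41) also lay below 0, while Acta2 (0.085), Tagln (0.10) and Myh11 (0.069) lay above it. Centred on each marker's own mean, the list averaged -0.20 to 0.045 in Fto -/- and 0.037 to 0.30 in Fto +/+ samples. Endothelial markers (10 of 10) had sums of 119 to 169 in Fto -/- and 131 to 186 in Fto +/+ samples, and adventitial fibroblast markers (6 of 6) of 779 to 897 in Fto -/- and 605 to 918 in Fto +/+ samples, lowest in Fto +/+ replicate 4. Macrophage markers (7 of 8 measured) had sums of 114 to 146 in Fto -/- and 84.7 to 117 in Fto +/+ samples. Itgam had its highest level, 6.57, in Fto +/+ replicate 4, the sample of the highest Fto +/+ sum. Every other measured macrophage marker was lowest in that sample. With each marker centred on its own mean, the list's mean level there was -0.85, the lowest of all arrays. T cell and thymocyte markers (10 of 12 measured) had sums of 4.68 to 16.7 in Fto -/- and 4.1 to 14.2 in Fto +/+ samples, and were high in Fto -/- replicates 1, 3 and 4 and in Fto +/+ replicate 2, the 4 arrays on which the thymocyte gene Rag1 was well above background. Brown adipocyte markers (7 of 8 measured) had sums of 98 to 478 in Fto -/- and 40.4 to 103 in Fto +/+ samples, with 5 of 7 at an unadjusted limma p under 0.05 and 0 past the adjusted threshold. White adipocyte markers (9 of 10 measured) had sums of 195 to 471 in Fto -/- and 142 to 439 in Fto +/+ samples. Cardiac muscle markers (5 of 5) had sums of 1.8 to 16.7 in Fto -/- and 3.03 to 11.5 in Fto +/+ samples. For skeletal muscle markers (3 of 4) the sums were 16.2 to 22.7 in Fto -/- and 22.5 to 35.4 in Fto +/+ samples, mostly from Acta1. Myh4, left out of the sums as not measured, had intensities of 713 and 200 in Fto +/+ replicates 1 and 3. On the other arrays Myh4 lay at 6.34 to 9.45. The intensity of Tnnt3 was 247 and 1127 in Fto +/+ replicates 1 and 3, and 56.3 to 97.3 on the other arrays. No list held a marker at background on every array, and 0 markers passed the adjusted threshold, while 12 of the 64 measured had an unadjusted p under 0.05. Alternative fits held the T cell or white adipocyte level as a covariate, or left out the 4 arrays with Rag1 signal. The part of the other cell types, brown adipocytes among them, in the results below was not tested.

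Of the 41 members, 39 were well above background on enough arrays to be tested, and 1 of them changed: Bmp2 fell in Fto -/- aorta. The remaining 38 did not pass the threshold of an adjusted p of 0.05. A count of 1 among 39 is 2.56%, beside 1.67% of all 25304 tested probes, and by direction 1 member was called lower (background 0.822%) and 0 higher (background 0.846%). At an unadjusted p under 0.05 stood 12 members with lower levels in Fto -/-, which is 30.8% beside 10.3% of all probes. These were Tgfb3, Bmp2, Inhbb, Bmpr1a, Acvr1, Acvr2b, Smad1, Smad9, Smad6, Smad7, Id2 and Id4. With higher levels stood 3, Acvrl1, Fst and Ltbp2, 7.69% beside 8.73%. The fitted difference was below 0 for 28 of 39 members, 71.8% beside 52.5% of all probes. The median difference of the tested members was -0.14 on the log2 scale, beside -0.015 for all tested probes, and single members ran from -0.95 to 0.78. Levels of the genotypes did not overlap for 4 members that were lower in Fto -/- (Bmp2, Bmpr1a, Acvr1 and Ltbp4, 10.3% beside 7.35% of probes) and for 2 that were higher (Acvrl1 and Ltbp2, 5.13% beside 4.75%). All but Bmp7 and Chrd among the tested members were well above background on all 8 arrays. In whole aorta, fewer cells of a type and less RNA per cell cannot be told apart.

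**Figure D1:**
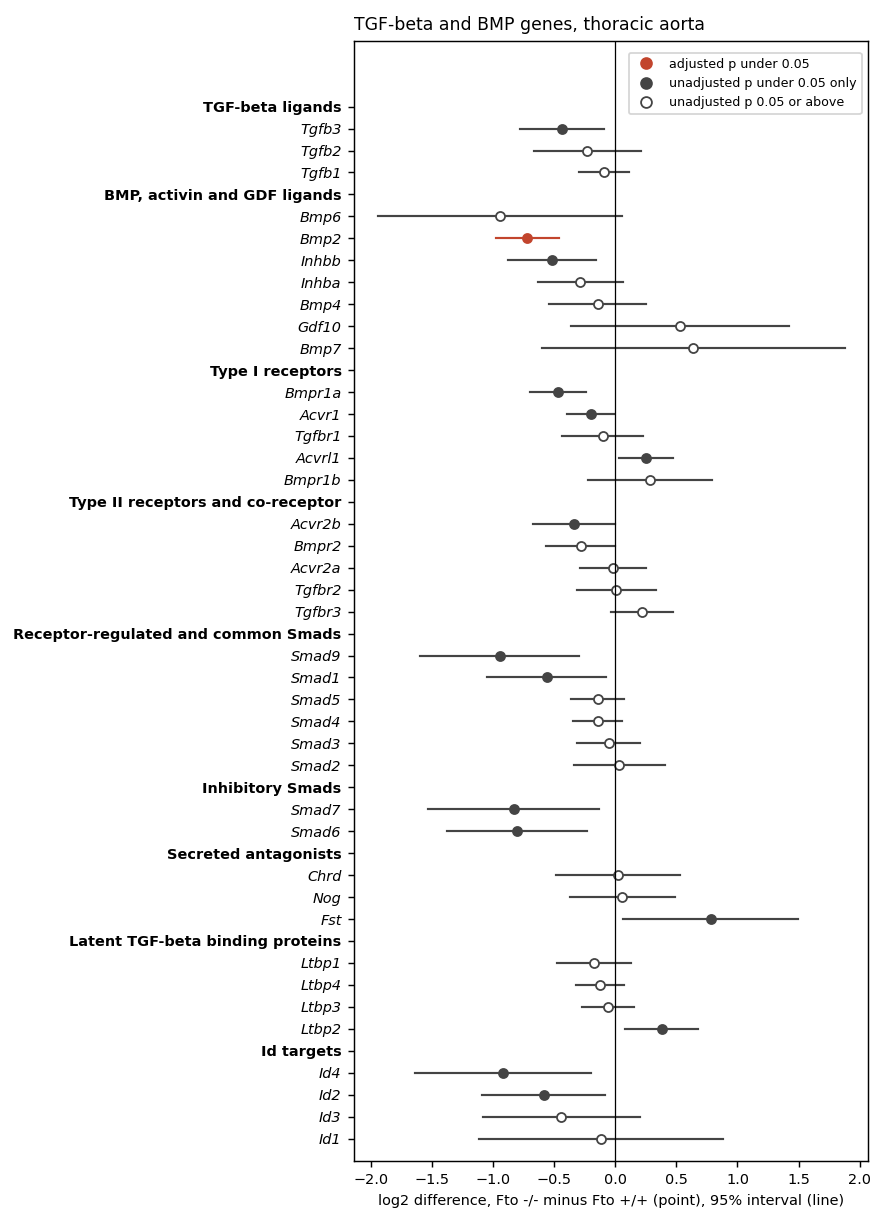
Log2 difference of each tested member, Fto -/- minus Fto +/+, with its 95% interval, grouped by role. Points left of 0 are lower in Fto -/-. Bmp2, in red, is the member past the adjusted threshold, and filled grey points have an unadjusted p under 0.05.

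The TGF-beta ligand genes did not pass. Tgfb3, which encodes a ligand made by vascular smooth muscle and fibroblasts, had levels of 5.11, 4.77, 4.76 and 4.69 in the Fto -/- samples and 5.55, 5.11, 5.40 and 5.01 in the Fto +/+ samples. The groups overlapped through Fto -/- replicate 1, which reached the 2 lower Fto +/+ samples, and the difference was -0.44 ± 0.15 (SE, adjusted p = 0.176). Tgfb2, a ligand that mouse embryos need to form the outflow tract of the heart, had levels of 3.40, 3.49, 2.98 and 2.78 in the Fto -/- samples and 3.45, 3.73, 3.19 and 3.20 in the Fto +/+ samples, which overlapped widely. Its difference was -0.23 ± 0.19 (SE, adjusted p = 0.547), and a second Tgfb2 probe differed by -0.12 ± 0.19. The Tgfb2 difference was -0.10 without Fto -/- replicate 4, -0.12 without Fto +/+ replicate 2 and -0.047 with the white adipocyte level in the fit, and it turned to 0.21 without the 4 arrays with Rag1 signal. Tgfb1, the ligand most often linked to fibrosis, differed by -0.091 ± 0.090, with a 95% interval of -0.30 to 0.11 and an adjusted p of 0.614.

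Bmp2, a ligand of the BMP branch that in the artery is known for its part in calcification, was the member past the threshold. Its levels were 0.090, -0.12, 0.16 and 0.031 in the Fto -/- samples and 0.93, 0.79, 0.53 and 0.79 in the Fto +/+ samples. Every Fto -/- sample lay below every Fto +/+ sample, the nearest pair being Fto -/- replicate 3 and Fto +/+ replicate 3. Mean levels were 0.040 ± 0.12 in Fto -/- and 0.76 ± 0.16 in Fto +/+ samples (SD, n = 4 each), a 1.65-fold lower signal (log2 difference -0.72 ± 0.11 SE, 95% interval -0.97 to -0.46, limma adjusted p = 0.0255). The exact two-sided permutation p over the 8 arrays, unadjusted, was 0.0286, the smallest this design can give. Every probe without overlap between the genotypes gets this value, so it only restates the separation. Of all tested probes, 7.35% were lower and 4.75% higher in Fto -/- without overlap. The size held between -0.88 and -0.66 in all 22 alternative settings, while the call held in 9 of them. It was lost without Fto -/- replicate 1 (difference -0.74, adjusted p = 0.0653), replicate 3 (-0.76, 0.0647) or replicate 4 (-0.72, 0.0785), and without Fto +/+ replicate 1 (-0.66, 0.069) or replicate 2 (-0.71, 0.0588). Within slide row 1 the difference was -0.88 and within row 2 it was -0.67, each from 1 array against 3 (adjusted p = 0.49 and 0.874), and with row as a block it was -0.78 (0.0876). Without the 4 arrays with Rag1 signal, which left 1 Fto -/- and 3 Fto +/+ samples, Bmp2 differed by -0.87 (adjusted p = 0.417). With the T cell marker level in the fit it differed by -0.79 (0.0572), and with the white adipocyte level by -0.69 (0.0688).

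The other ligand genes of the BMP, activin and GDF branch did not pass. Inhbb, which encodes the beta B subunit of activin and inhibin, had levels of -0.082, 0.41, -0.064 and -0.13 in the Fto -/- samples and 0.84, 0.37, 0.60 and 0.39 in the Fto +/+ samples. Of the Fto -/- samples, replicate 2 reached the Fto +/+ range, and the difference was -0.52 ± 0.16 (SE, adjusted p = 0.136). It was -0.20 (adjusted p = 0.821) without the arrays with Rag1 signal and -0.34 with the T cell level in the fit. Inhba, which encodes the beta A subunit, differed by -0.29 ± 0.15 (adjusted p = 0.347) and by 0.076 without the arrays with Rag1 signal. Bmp6, an endothelial ligand best known for controlling iron through hepcidin in the liver, varied widely between samples of a genotype, at -0.037 ± 0.62, against 0.91 ± 0.83 (SD, n = 4 each, Fto -/- against Fto +/+), and its difference of -0.95 ± 0.44 carried an adjusted p of 0.285, becoming -0.55 with the white adipocyte level in the fit. Bmp4, an endothelial and mesenchymal ligand, differed by -0.14 ± 0.17 (adjusted p = 0.685), and by -0.018 without Fto +/+ replicate 2. Bmp7 (0.64 ± 0.54) and Gdf10 (0.53 ± 0.39) had fitted differences above 0 with adjusted p of 0.554 and 0.49. Bmp7 was well above background on 4 Fto -/- and 2 Fto +/+ arrays, and the level of Gdf10 in Fto +/+ replicate 4, 1.95, lay far under the other seven. Without that array Gdf10 differed by 0.13, and it turned to -0.036 within slide row 1 and to -0.021 without the arrays with Rag1 signal. Bmp7 differed by 0.27 without Fto +/+ replicate 1 and by 1.17 without Fto +/+ replicate 3.

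**Figure D2:**
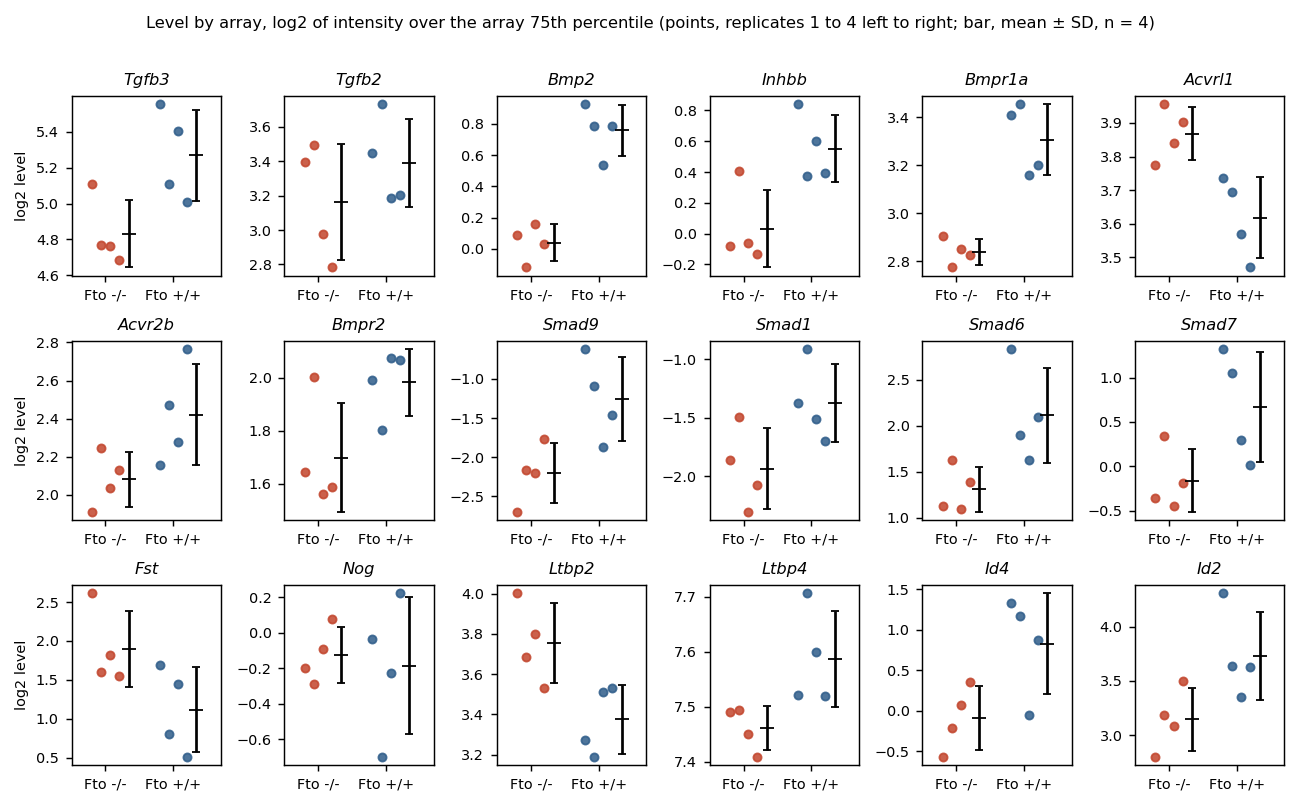
Level on each array (log2 of intensity over the array's 75th percentile) of the 2 members of smallest p in each role, with Fto -/- samples in red on the left and Fto +/+ samples in blue on the right. Each bar is the mean and SD of 4 samples. The genotypes separate without overlap for Bmp2, Bmpr1a, Acvrl1, Ltbp2 and Ltbp4 among the 18 genes shown.

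Among type I receptor genes, 0 of 5 tested passed. Bmpr1a, the BMP receptor also called ALK3, came nearest to the threshold of the members that missed it. Its levels were 2.91, 2.77, 2.85 and 2.83 in the Fto -/- samples and 3.41, 3.45, 3.16 and 3.20 in the Fto +/+ samples, with no overlap and little spread in the Fto -/- samples. Mean levels were 2.84 ± 0.055 in Fto -/- and 3.31 ± 0.15 in Fto +/+ samples (SD, n = 4 each), a log2 difference of -0.47 ± 0.10 (SE, adjusted p = 0.061). Bmpr1a did pass with array weights (adjusted p = 0.029), with normexp background correction (0.0368) and without Fto +/+ replicate 4 (0.0468), and its difference ran from -0.57 to -0.40 over all 22 settings. Acvrl1, the endothelial receptor ALK1 for BMP9 and BMP10, showed the opposite order, with levels of 3.77, 3.96, 3.84 and 3.90 in the Fto -/- samples and 3.74, 3.69, 3.57 and 3.47 in the Fto +/+ samples. All Fto -/- samples lay above all Fto +/+ samples, but by a small margin, and the difference of 0.25 ± 0.10 did not pass (adjusted p = 0.212) and was 0.12 within slide row 1. Acvr1, the BMP and activin receptor ALK2, had the smallest spread of the members and no overlap between genotypes, at 3.39 ± 0.059, against 3.59 ± 0.064 (SD, n = 4 each, Fto -/- against Fto +/+; difference -0.20 ± 0.083, adjusted p = 0.237). A second Acvr1 probe differed by -0.22 ± 0.12. Tgfbr1, the TGF-beta receptor ALK5, and Bmpr1b, the BMP receptor ALK6, each had probes that disagreed in sign: -0.10 and 0.17 for Tgfbr1, and 0.29 and -0.21 for Bmpr1b; the brighter probes had adjusted p of 0.734 for Tgfbr1 and 0.514 for Bmpr1b. Acvr1b, the activin receptor ALK4, was well above background on 0 of 8 arrays and was not tested.

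The type II receptor genes and the co-receptor gene Tgfbr3 (betaglycan) did not pass either. Acvr2b, an activin and BMP receptor gene, had levels of 1.91, 2.25, 2.04 and 2.13 in the Fto -/- samples and 2.16, 2.47, 2.28 and 2.77 in the Fto +/+ samples. Its groups overlapped, and the difference was -0.34 ± 0.15 (adjusted p = 0.257), -0.22 without Fto +/+ replicate 4, -0.094 within slide row 1 and -0.15 without the arrays with Rag1 signal. Bmpr2, the BMP receptor gene whose loss-of-function variants cause heritable pulmonary arterial hypertension in humans, had levels of 1.64, 2.00, 1.56 and 1.59 in the Fto -/- samples and 1.99, 1.80, 2.07 and 2.07 in the Fto +/+ samples. Fto -/- replicate 2 lay inside the Fto +/+ range while the other three lay below it, and the difference was -0.28 ± 0.12 (adjusted p = 0.265). It was -0.040 (adjusted p = 0.956) without the arrays with Rag1 signal and -0.13 with the T cell level in the fit. Tgfbr2, the TGF-beta type II receptor, differed by 0.0081 ± 0.14 (95% interval -0.31 to 0.33) and Acvr2a by -0.019 ± 0.12 (-0.29 to 0.25). Tgfbr3 differed by 0.22 ± 0.11 (adjusted p = 0.329).

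Of the Smads that carry the signal, the BMP-branch members Smad9 and Smad1 had the largest fitted differences, and 0 of 6 passed. Both were read at low intensities. Smad9 lay at 57.6 to 98.8 in Fto -/- and 104 to 244 in Fto +/+ samples, and the brighter Smad1 probe at 59.6 to 113 and 98.7 to 221. Smad9, also called Smad8, had levels of -2.70, -2.16, -2.20 and -1.76 in the Fto -/- samples and -0.62, -1.09, -1.87 and -1.46 in the Fto +/+ samples. Fto +/+ replicate 1 was the highest and Fto -/- replicate 1 the lowest, and the genotypes overlapped through Fto -/- replicate 4 and Fto +/+ replicate 3. The difference was -0.95 ± 0.28 (SE, 95% interval -1.60 to -0.30, adjusted p = 0.133), and without Fto +/+ replicate 1 it was -0.73. Within slide row 1 it was -1.74 and within row 2 -0.29. Smad1 had levels of -1.86, -1.50, -2.31 and -2.08 in the Fto -/- samples and -1.38, -0.91, -1.51 and -1.70 in the Fto +/+ samples, with Fto -/- replicate 2 inside the Fto +/+ range. Its difference was -0.56 ± 0.21 (adjusted p = 0.211), and a second, dimmer Smad1 probe differed by -0.62 ± 0.15 with no overlap (adjusted p = 0.0864). That second probe was well above background on only 2 Fto -/- arrays and on 4 Fto +/+ arrays. Its intensities were 27.1 to 47.1 in Fto -/- and 54.5 to 66.4 in Fto +/+ samples. The brighter Smad1 probe differed by -0.35 with normexp, and by 0.034 without the 4 arrays with Rag1 signal. Smad5, the third BMP-branch Smad, differed by -0.15 ± 0.10, and its dimmer probe by 0.15 ± 0.28. The TGF-beta branch Smads were close to 0, with 0.034 ± 0.16 for Smad2 and -0.054 ± 0.11 for Smad3 (95% intervals -0.34 to 0.41 and -0.31 to 0.20). The common Smad, Smad4, differed by -0.14 ± 0.087 (adjusted p = 0.403) and its second probe by -0.47 ± 0.21 (adjusted p = 0.271).

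The inhibitory Smads, which are induced by the pathway and block it in turn, both had lower mean levels in Fto -/- and did not pass. Smad6, which acts mainly on the BMP branch, had levels of 1.13, 1.63, 1.1 and 1.38 in the Fto -/- samples and 2.84, 1.90, 1.62 and 2.09 in the Fto +/+ samples. Fto +/+ replicate 1 stood well above all others, and the groups met at Fto -/- replicate 2 and Fto +/+ replicate 3. The difference was -0.80 ± 0.25 (SE, adjusted p = 0.143), and without Fto +/+ replicate 1 it was -0.56 (adjusted p = 0.206). Smad7, which blocks both branches, had levels of -0.35, 0.35, -0.45 and -0.19 in the Fto -/- samples and 1.32, 1.05, 0.30 and 0.012 in the Fto +/+ samples. Fto +/+ replicates 1 and 2 were the highest and the other two lay within the Fto -/- range, with a difference of -0.83 ± 0.31 (adjusted p = 0.198). Within slide row 1 the differences were -1.55 for Smad6 and -1.48 for Smad7, and within row 2 they were -0.49 and -0.64. Without the arrays with Rag1 signal Smad7 differed by -0.20 (adjusted p = 0.933).

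The Id genes, direct BMP targets that encode inhibitors of basic helix-loop-helix factors, had fitted differences below 0 in 4 of 4, and 0 passed. Id4 had levels of -0.57, -0.22, 0.075 and 0.36 in the Fto -/- samples and 1.33, 1.18, -0.053 and 0.87 in the Fto +/+ samples. Fto +/+ replicate 3 lay among the Fto -/- samples and the other three lay above them, giving a difference of -0.92 ± 0.32 (SE, adjusted p = 0.174), which was -1.56 within slide row 1 and -0.31 within row 2. Id2 had levels of 2.80, 3.19, 3.08 and 3.50 in the Fto -/- samples and 4.30, 3.64, 3.35 and 3.63 in the Fto +/+ samples, with Fto +/+ replicate 1 far above the rest and an overlap at Fto -/- replicate 4 and Fto +/+ replicate 3. Its difference was -0.59 ± 0.22 (adjusted p = 0.206), and without the 4 arrays with Rag1 signal it was -0.57. Within slide row 1 Id2 differed by -1.28 and within row 2 by -0.037. Id3 differed by -0.44 ± 0.28 (adjusted p = 0.426), by -0.21 without Fto +/+ replicate 2, by -0.66 without Fto +/+ replicate 4 and by 0.093 without the arrays with Rag1 signal. Id1 differed by -0.12 ± 0.44, with a wide 95% interval of -1.12 to 0.88 and an Fto -/- replicate 2 level of 4.19 close to the top of the Fto +/+ range. Id1 differed by 1.09 without the arrays with Rag1 signal and by 0.29 with the white adipocyte level as a covariate, so its sign changed with the setting.

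Bmp2, the member past the threshold, had no promoter window. Windows are shown for Bmpr1a, the nearest to the threshold of the members that missed it. Those of Smad6, Id2 and Id4, targets of the pathway whose fitted differences were among the largest, are also shown. The choice was made by hand, and Smad7, an inhibitory Smad with a difference of -0.83, is not shown. Each runs from 250 bases before to 50 bases after the RefSeq start in build GRCm38.p6 and is given 5′ to 3′ on the gene's strand. Capitals mark the Smad-binding letters GGCGCC, a motif of BMP-responsive promoters, and GTCTAGAC, the palindromic Smad box. Both read the same on either strand, and they do not overlap each other here.
Bmpr1a (chr14:34502497-34502796, minus strand): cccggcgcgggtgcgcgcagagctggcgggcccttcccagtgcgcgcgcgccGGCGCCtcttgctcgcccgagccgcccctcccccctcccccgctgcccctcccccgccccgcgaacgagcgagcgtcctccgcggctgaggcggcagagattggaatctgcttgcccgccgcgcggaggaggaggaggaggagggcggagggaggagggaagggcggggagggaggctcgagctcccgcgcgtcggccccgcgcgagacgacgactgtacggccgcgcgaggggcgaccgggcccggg
Smad6 (chr9:64022010-64022309, minus strand): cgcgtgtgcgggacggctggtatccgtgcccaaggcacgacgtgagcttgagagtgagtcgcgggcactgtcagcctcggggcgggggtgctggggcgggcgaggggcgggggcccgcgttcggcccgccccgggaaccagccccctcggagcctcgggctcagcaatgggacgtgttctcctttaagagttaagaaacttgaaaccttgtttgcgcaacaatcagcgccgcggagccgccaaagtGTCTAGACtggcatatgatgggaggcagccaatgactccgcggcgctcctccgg
Id2 (chr12:25096043-25096342, minus strand): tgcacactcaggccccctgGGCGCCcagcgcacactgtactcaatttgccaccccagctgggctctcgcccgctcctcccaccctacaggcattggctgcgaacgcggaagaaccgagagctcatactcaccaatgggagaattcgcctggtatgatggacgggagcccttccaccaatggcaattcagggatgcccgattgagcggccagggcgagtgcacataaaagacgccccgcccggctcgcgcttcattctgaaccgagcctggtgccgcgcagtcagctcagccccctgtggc
Id4 (chr13:48260866-48261165, plus strand): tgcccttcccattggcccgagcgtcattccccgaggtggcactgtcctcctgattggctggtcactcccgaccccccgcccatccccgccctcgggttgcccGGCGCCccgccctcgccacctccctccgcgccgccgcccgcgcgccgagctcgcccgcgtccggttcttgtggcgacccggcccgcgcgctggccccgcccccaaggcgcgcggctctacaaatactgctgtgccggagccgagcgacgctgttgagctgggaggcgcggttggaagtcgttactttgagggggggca
GGCGCC occurred once in the windows of Bmpr1a, Id2 and Id4, beginning 198, 231 and 148 bases before the start. GTCTAGAC occurred in the Smad6 window, beginning 4 bases before the start. Of 30 members with a window, 12 held GGCGCC (40%), as did 13.4% of all 27025 genes with a window, and 1 held GTCTAGAC, as did 0.248% of all such genes. By window the shares were 11.9% and 0.213% of 32851. The 12 members with GGCGCC include Bmpr2, Chrd, Gdf10 and Ltbp4, and Smad9 held it 51 bases before its start. Id3, not shown, had a window with neither GGCGCC nor GTCTAGAC. The shorter letters CAGAC, read on both strands, were found for 15 of 30 members and for 53.2% of all genes with a window. Base composition was not matched between members and other genes, and no binding was measured in these samples.

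The secreted antagonists, which bind ligands outside the cell, did not pass. Fst encodes follistatin, which traps activins, and its levels were 2.61, 1.60, 1.82 and 1.56 in the Fto -/- samples and 1.69, 0.81, 1.45 and 0.52 in the Fto +/+ samples. Fto -/- replicate 1 was the highest, and only Fto +/+ replicate 1 lay inside the Fto -/- range. The difference was 0.78 ± 0.32 (SE, adjusted p = 0.233). It was 0.48 once row was blocked (adjusted p = 0.554), 0.32 within row 1 and 0.38 without the arrays with Rag1 signal. Nog encodes noggin, a BMP trap, and had levels of -0.20, -0.29, -0.090 and 0.076 in the Fto -/- samples and -0.038, -0.70, -0.23 and 0.22 in the Fto +/+ samples, which overlapped fully (difference 0.059 ± 0.19, 95% interval -0.37 to 0.49). Chrd, which encodes the BMP trap chordin, differed by 0.026 ± 0.22 and was well above background on 3 Fto -/- and 4 Fto +/+ arrays. Grem1, which encodes gremlin, was well above background on 2 Fto -/- and 1 Fto +/+ arrays and was not tested.

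Latent TGF-beta binding proteins hold the inactive ligand in the matrix, apart from LTBP2, which binds fibrillin but not latent TGF-beta. Of the 4 genes 0 passed. Ltbp2 had levels of 4.00, 3.68, 3.80 and 3.53 in the Fto -/- samples and 3.27, 3.19, 3.51 and 3.53 in the Fto +/+ samples. Fto -/- samples were the higher ones, Fto -/- replicate 4 and Fto +/+ replicate 4 almost touching, and the difference was 0.38 ± 0.13 (SE, adjusted p = 0.179). Within slide row 1 it was 0.56, within row 2 0.12 and without the arrays with Rag1 signal 0.25. Ltbp4 had levels of 7.49, 7.49, 7.45 and 7.41 in the Fto -/- samples and 7.52, 7.71, 7.60 and 7.52 in the Fto +/+ samples, lower in all Fto -/- samples by a margin under its standard error, with a difference of -0.13 ± 0.085 (adjusted p = 0.449) and of -0.21 ± 0.12 for a second probe. Ltbp1 (-0.18 ± 0.13) and Ltbp3 (-0.060 ± 0.093) had adjusted p of 0.499 and 0.758.

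**Figure D3:**
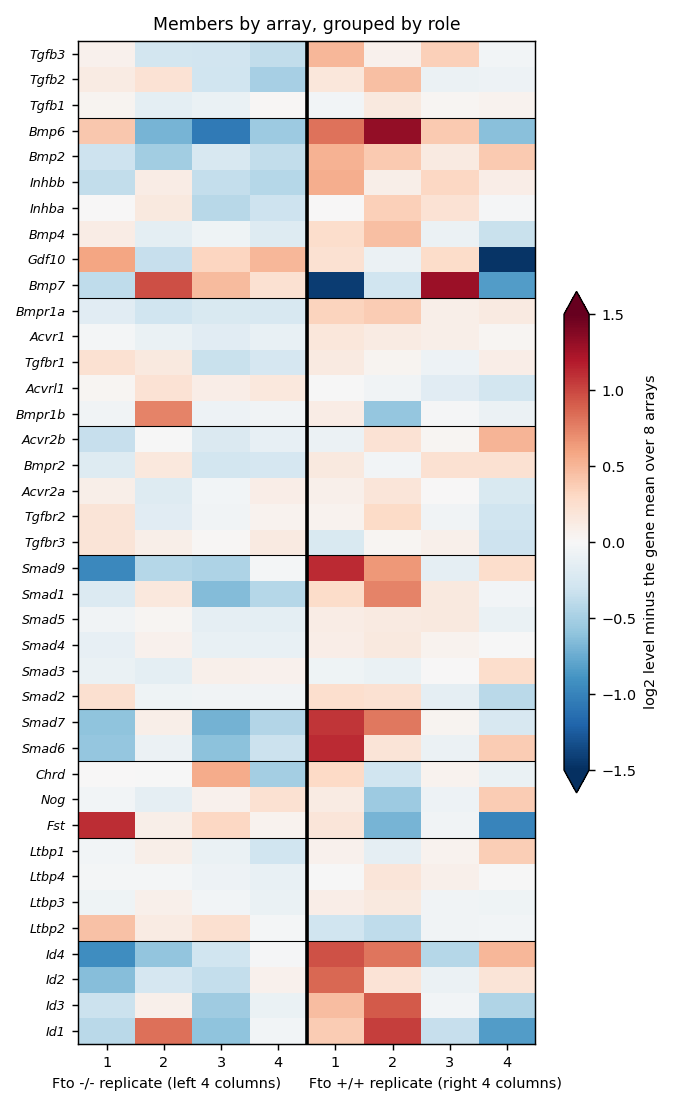
Each tested member's level on each array minus its own mean over the 8 arrays, in log2 units, grouped by role; the left 4 columns are Fto -/- and the right 4 are Fto +/+ samples. The genes Smad9, Smad6, Smad7, Id2 and Id4 are highest in Fto +/+ replicate 1, and Smad1, Id1, Id3 and Bmp6 in Fto +/+ replicate 2.

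The members did not vary alike among samples of 1 genotype. The pooled SD within genotypes was largest for Bmp7 (0.91), Id1 (0.73), Bmp6 (0.73) and Gdf10 (0.65) and smallest for Acvr1 (0.061), Ltbp4 (0.068) and Smad4 (0.077). All tested receptor genes but Bmpr1b, and all 4 latent binding protein genes, lay under the median of the members, 0.23, which is close to the median of all tested probes, 0.21. The highest array was Fto +/+ replicate 1 or 2 for 24 of 39 members (61.5%), beside 32.7% of all tested probes, a split chosen after the values were seen. The median centred level of the members was -0.046, -0.0037, -0.13 and -0.11 in the Fto -/- samples and 0.17, 0.15, 0.029 and -0.042 in the Fto +/+ samples. Fto +/+ replicates 1 and 2 thus lay highest, and Fto +/+ replicate 4 lay among the Fto -/- samples. Of 13 members with a second probe, 10 had it tested, with the same sign as the first in 7 and the opposite sign in Tgfbr1, Bmpr1b and Smad5, and 0 of the 10 passed (adjusted p from 0.0864 to 0.803).

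**Figure D4:**
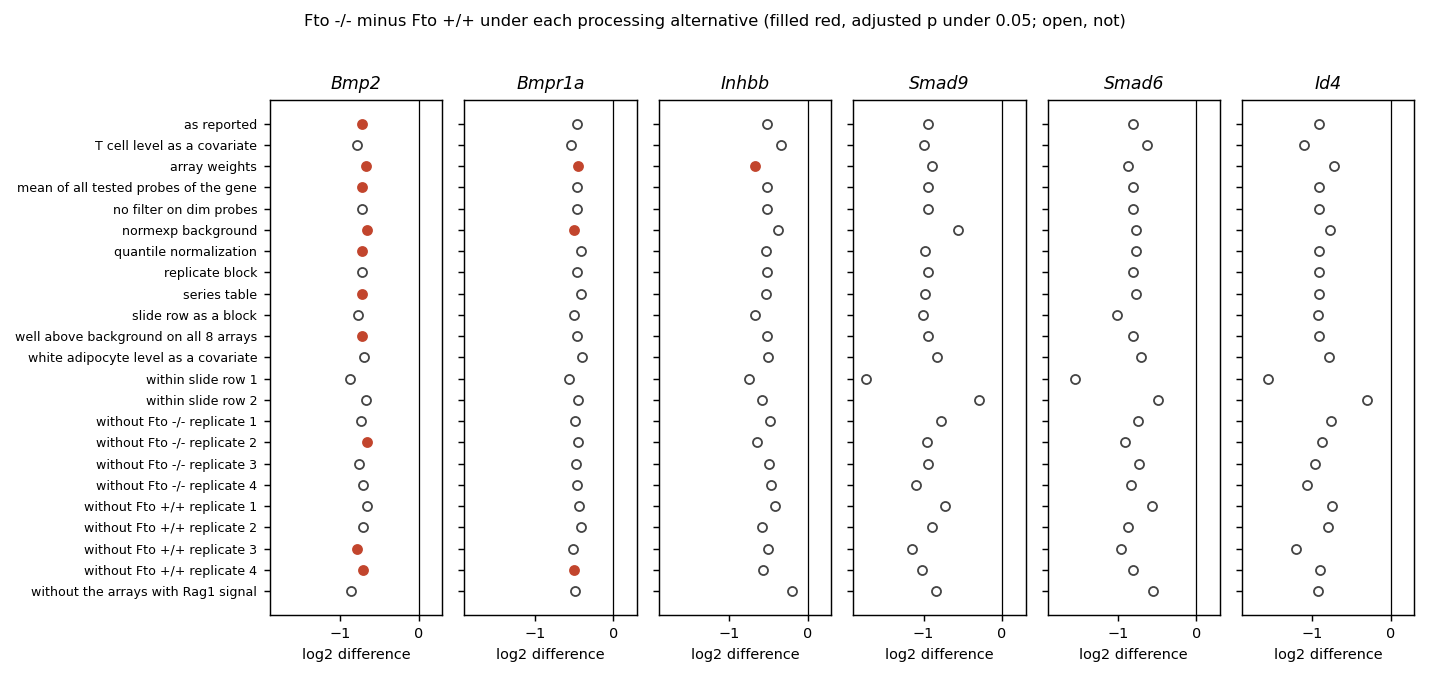
Log2 difference (Fto -/- minus Fto +/+) of 6 members under each processing alternative, filled red where the adjusted p was under 0.05. Bmp2 stays between -0.88 and -0.66 and passes in 9 of 22 alternatives, while Smad9 (-1.74 to -0.29), Smad6 (-1.55 to -0.49) and Id4 (-1.56 to -0.31) move more and pass in none of them.

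Around the members, a list of 70 other genes of the pathway was read in the same fit. Of these, 49 were tested, 2 rose, 0 fell and 47 did not pass, 4.08% called beside the background of 1.67%. At an unadjusted p under 0.05 stood 8 with lower and 7 with higher levels in Fto -/- (16.3% and 14.3%, beside 10.3% and 8.73% of all probes), and the median difference was -0.093. Amhr2, the type II receptor for anti-Müllerian hormone, had levels of -1.42, -0.78, -1.27 and -1.37 in the Fto -/- samples and -2.79, -2.78, -2.47 and -2.67 in the Fto +/+ samples. Its intensities were low, 123 to 186 in Fto -/- and 50.3 to 68.7 in Fto +/+ samples. The probe was well above background on 4 Fto -/- and 4 Fto +/+ arrays. All Fto -/- samples lay above all Fto +/+ samples, a 2.77-fold higher signal (log2 difference 1.47 ± 0.16 SE, limma adjusted p = 0.00762). Aspn encodes asporin, a matrix proteoglycan that binds TGF-beta, and had levels of 1.51, 1.84, 1.93 and 1.79 in the Fto -/- samples and 0.99, 0.78, 1.17 and 0.72 in the Fto +/+ samples. It too rose without overlap, by 1.81-fold (log2 difference 0.85 ± 0.14 SE, adjusted p = 0.0268). Amhr2 passed in 19 and Aspn in 9 of 22 alternative settings. Amhr2 lost its call within slide row 1 (1.63, adjusted p = 0.409), within row 2 (1.27, 0.542) and without the arrays with Rag1 signal (1.86, 0.269), each with 4 arrays left, and kept it at a smaller difference with normexp (0.87, 0.0131). Aspn differed by 0.74 to 0.94 in all of them. It lost its call without Fto -/- replicate 2 (0.83), replicate 3 (0.80) or replicate 4 (0.85) and without Fto +/+ replicate 1 (0.88) or replicate 2 (0.81), with adjusted p from 0.0545 to 0.0881. Without the arrays with Rag1 signal it differed by 0.88 (adjusted p = 0.431).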

How the data were processed

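Thoracic aorta RNA of 4 Fto -/- and 4 Fto +/+ samples was read on single-dye Agilent 8x60K mouse arrays. Per the file headers, the deposited intensity of each spot came from Feature Extraction 11.0.1.1 and was background-subtracted by that software, with no scaling between arrays. The deposited table of the series has log2 values for these arrays, centred per probe on the median of the 8 arrays, as found by comparison with the scanner files (correlations 0.983 to 0.997, slopes 0.958 to 1.01, column medians -0.0095 to 0.0049 over 22227 probes). No source used here gives its normalization, and it served as an alternative.

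Control spots (3671 per array) were left out and 126 to 189 outlier spots per array set to missing, which left 55681 probes, of which 28325 were named through RefSeq accessions. Each value was the log2 of intensity minus the log2 of the array's 75th percentile, spots of a probe averaged. The 25304 probes well above background on at least 4 of 8 arrays were compared with limma 3.58.1 (lmFit, eBayes; R 4.3.3), as the level in Fto -/- minus that in Fto +/+. Benjamini-Hochberg adjustment ran over all of them, with a threshold of 0.05. The number of arrays limits the precision. The fit was tested on simulated data of this comparison (25304 probes), with noise drawn independently for each probe. It recovered 64% of 100 changes of log2 size 1 and 91% of 100 of size 2, with 13 false calls. Fitted differences of the members ran from -0.95 to 0.78, under the smallest simulated size, so recovery at their sizes was not tested.

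Members and gene lists were chosen with earlier results of these data known. Values on every array are given for members past the threshold and for the 2 of smallest p in each role, and of the other pathway genes those past the threshold are named. Alternatives were array weights, quantile normalization, the series table, normexp, other filters on dim probes, the mean of a gene's probes, slide row and replicate number as blocks, T cell and white adipocyte levels as covariates, single slide rows, and leaving out each array or the 4 arrays with Rag1 signal. Normexp on median signals and the last of these were added after seeing the data. The array is annotated on mm9, so promoter coordinates are those of the RefSeq windows in GRCm38.p6, which 30 of 41 members had.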

Additional observations from a re-analysis of the deposited data

Results flagged for a closer look

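In 84 groups of 4 samples, covering the tested members, Amhr2, Aspn and Fto, 5 values stood far from the other three of their genotype; the gap is given as a share of the group's whole range, taken from Dixon's test, whose limit chance alone passes in about 1 group of 20. Fto -/- replicate 2 was such a high value for Inhbb (0.41 beside -0.13 to -0.064, gap 0.873), for Bmpr1b (2.90 beside 2.08 to 2.11, gap 0.967) and for Smad4 (3.67 beside 3.49 to 3.49, gap 0.973). For Smad2, Fto -/- replicate 1 stood above its group (-0.20 beside -0.51 to -0.49, gap 0.93). For Smad5, Fto +/+ replicate 4 stood below its group (3.33 beside 3.54 to 3.57, gap 0.856). Fto -/- replicate 2 is the Fto -/- array without Rag1 signal, and its part in these values was not tested. Without Fto -/- replicate 2, Inhbb differed by -0.64 (adjusted p = 0.0675).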

How the results depend on the processing

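The count of 1 member called lower was 3 with array weights (Bmp2, Bmpr1a and Inhbb), 2 with normexp (Bmp2 and Bmpr1a) and 0 without a filter on dim probes, with the T cell or white adipocyte marker level in the fit, with slide row as a block, within slide row 1, within row 2 and without the arrays with Rag1 signal. In the 8 fits without 1 array it ran from 0 to 2. The count of members called higher stayed at 0 in all 22 alternatives. The members' median difference of -0.14 was -0.23 with slide row as a block and lay between -0.20 and -0.071 in the others. Of the other pathway genes, 2 were called higher. That count was 4 with array weights, 1 with the T cell or white adipocyte level in the fit, with no filter and with slide row as a block, 0 within slide row 1, within row 2 and without the arrays with Rag1 signal, and 1 to 3 without 1 array; the count called lower, 0, was 2 with array weights and 0 to 1 without 1 array. Fto differed by -3.02 within row 1 (adjusted p = 0.154), by -3.33 within row 2 (0.32) and by -2.66 without the arrays with Rag1 signal (0.129). All these small subsets leave 1 array of a genotype, whose spread is assumed to equal that of the others.

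With replicate number as a block, 0 members were called lower (Bmp2 -0.72, adjusted p = 0.0859), 1 other pathway gene was called higher, and over all probes 88 were higher and 42 lower in place of 214 and 208. Deviations of same-numbered samples correlated at -0.041 to 0.15 over the 4 pairs and those of differently numbered samples at -0.31 to 0.19, so the numbers were not treated as pairing.

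Over all probes the counts of higher and lower calls were 777 and 845 with array weights, 76 and 53 with the T cell level, 86 and 56 with the white adipocyte level, 33 and 13 with slide row as a block, 61 and 35 without a filter, 0 and 0 within row 1, 1 and 0 within row 2, 0 and 0 without the arrays with Rag1 signal, and 55 to 500 and 46 to 387 without 1 array. By limma, 22 of 39 members kept the sign of their difference in every alternative that tested them. Bmp7 and Chrd were tested in 21 of the 22 alternatives. The sign turned in at least 1 for 17 members, 0 of which passed the threshold in any setting. The cause was not tested. Without the arrays with Rag1 signal, Tgfb2 was 0.21, Inhba 0.076, Gdf10 -0.021, Tgfbr1 0.10, Tgfbr2 -0.071, Smad1 0.034, Smad4 0.010, Nog -0.28, Chrd -0.090, Ltbp3 0.089, Id1 1.09, Id3 0.093. With the white adipocyte marker level in the fit, Bmp4 was 3.7e-05, Acvr2a 0.030, Nog -0.075, Chrd -0.065, Id1 0.29. Within slide row 1, Gdf10 was -0.036, Tgfbr2 -0.062, Smad2 -0.21, Smad3 0.0020, Nog -0.16, Chrd -0.11. With the mean of all tested probes, Tgfbr1 was 0.032, Smad5 0.0036. With the T cell marker level in the fit, Tgfbr2 was -0.13, Smad2 -0.063. With normexp, Tgfbr2 was -0.0013. Within slide row 2, Acvr2a was 0.12, Smad3 0.0073, Chrd -0.39, Id1 0.0070. With array weights, Smad2 was -0.021, Smad3 0.019, Chrd -0.10. With slide row as a block, Smad2 was -0.075, Smad3 0.0047, Chrd -0.25. With quantile normalization, Chrd was -0.031. In the series table, Chrd was -0.031. In the fits without 1 array, Tgfbr2 ran from -0.090 to 0.10, Acvr2a ran from -0.10 to 0.041, Smad2 ran from -0.10 to 0.12, Smad3 ran from -0.10 to 0.025, Nog ran from -0.11 to 0.19, Chrd ran from -0.16 to 0.20, Id1 ran from -0.41 to 0.21.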
